A study of Mus musculus with 25 samples.

Results

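The genes described here are Ugt2b5, Ugt2b34, Ugt2b35, Ugt2b36, Ugt2b37 and Ugt2b38, the Ugt2b UDP-glucuronosyltransferases named on the array that gave a usable signal. They were taken by gene name, with older aliases counted, and are 6 of the 25561 genes or unnamed probes that passed the filter on dim probes. They were proposed with their values in all 6 groups of the study in view. Their levels and differences are therefore given as a description. Where members passing the fit over all features are counted, the share of all features passing stands beside the count and nothing is read from it; tests are kept for other genes of the pathway. UDP-glucuronosyltransferases sit in the membrane of the endoplasmic reticulum and attach glucuronic acid, taken from UDP-glucuronic acid, to steroids, bile acids, drugs and dietary compounds. The products are more soluble in water and leave the cell through efflux pumps. In mouse the Ugt2b genes lie side by side in a cluster on chromosome 5, and several are known mainly from liver, with expression in kidney and gut as well.

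Colon RNA was taken at the age of 8 weeks from females of the strain C57BL/6J, either wild type (WT) or Card9-/- bred on that background. CARD9 is a signalling adaptor of innate immune cells, acting below receptors that bind fungal sugars. For colitis, the drinking water held dextran sulphate sodium (DSS), which damages the epithelium, at 2% w/v over 7 days, and plain water followed for 5 days. The groups were WT day 0 (no DSS, n = 3), Card9-/- day 0 (no DSS, n = 3), WT day 7 (n = 5), Card9-/- day 7 (n = 4), WT day 12 (n = 5) and Card9-/- day 12 (n = 5), with 1 mouse on each of 25 single-colour arrays. The design names 5 mice for Card9-/- day 7, of which 1 is not analysed here. By its title the series asks how CARD9 acts on colitis through microbial tryptophan products. For the Ugt2b genes the design gives the levels during injury and recovery in each genotype, and between genotypes at each day. All values are log2 of the background-subtracted signal minus the 75th percentile of the same array, so 0 marks a probe as bright as that percentile. Signals of different probes are not comparable as amounts of RNA and were not ranked against each other.

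Between 48.0% and 67.9% of the spots of an array were well above background. The 9 colon epithelium markers, such as Epcam and Cdh1, were well above background on all arrays, and their mean moved by at most 0.46 from the WT day 0 mean. The single Card9 probe went against the labels: it read -1.52 to -0.48 on the 12 arrays labelled Card9-/- and -6.84 to -2.93 on the 13 WT arrays. Directions between genotypes below are therefore those of arrays labelled Card9-/-. The sources used here do not say which part of the gene was deleted, so this probe does not check the labels. On 4 arrays the anterior Hox gene Hoxb6 was above the 75th percentile: Card9-/- day 0 replicates 1 and 2 (2.57 and 2.00), WT day 7 replicate 1 (3.25) and WT day 12 replicate 4 (0.13). On the other 21 arrays Hoxb6 was at -1.03 or lower. Hox genes mark position along the gut, with the anterior genes on in proximal colon and Hoxb13 in distal colon. Hoxb13 was low on the first pair of these arrays (1.52 and 3.24) and at 4.66 or more on all others. On 4 arrays, Card9-/- day 7 replicates 2 and 3, Card9-/- day 12 replicate 1 and WT day 12 replicate 5, the mean of 11 pancreatic acinar genes stood 8.50 to 14.7 above its WT day 0 mean. The arrays lay on 4 slides, each scanned in 1 run.

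Each of the 6 genes is read by a separate probe on chromosome 5 of the mm9 build, as the array files place it. The probes lie at chr5:87318849-87318908 for Ugt2b34, chr5:87441721-87441780 for Ugt2b35, chr5:87495455-87509913 for Ugt2b36, chr5:87554155-87554214 for Ugt2b5, chr5:87669707-87669766 for Ugt2b37 and chr5:87839345-87839404 for Ugt2b38. The Ugt2b35 probe is on the plus strand and the others are on the minus strand. The 60-base Ugt2b36 probe covers a far longer stretch of the genome than its own length, so it spans at least 1 intron. Its accession field names Ugt2b37 beside Ugt2b36. The sequences most alike among the probes are those of Ugt2b5 and Ugt2b37, which match at 46 of 55 overlapping bases and share a run of 18. Between the other probes chosen for the 6 genes the longest shared run was 7 bases. The 30-base stretches in which Ugt2b5 and Ugt2b37 are most alike follow, with the bases that differ in capitals, and then the whole Ugt2b36 probe, because of its double assignment.
Ugt2b37 probe, bases 11 to 40: aactttcagcctcattctAatttatgaGcc
Ugt2b5 probe, bases 6 to 35: aactttcagcctcattctTatttatgaAcc
Ugt2b36 probe: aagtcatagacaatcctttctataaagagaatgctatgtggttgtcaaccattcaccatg
Part of the signal of the Ugt2b5 and Ugt2b37 probes may come from each other's RNA, and part of that of the Ugt2b36 probe from Ugt2b37 RNA, which was not tested. Probes were compared with each other and not with the RNAs of the other members. Short shared runs therefore do not show that a probe reads 1 member alone.

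Start sites showed which members are close copies. In RefSeq windows of the GRCm38.p6 build, from 250 bases before to 50 after the start, all 6 members had an entry. In pairwise alignments the 300-base windows of Ugt2b5, Ugt2b37 and Ugt2b38 were identical at 82.67 to 91.33% of bases. The window of Ugt2b36 matched those at 67.33 to 69.0%, that of Ugt2b35 at 67.67%, and that of Ugt2b34 at 60.33 to 62.33%. A run of 22 bases, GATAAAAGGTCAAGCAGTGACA, lies just before the start of 4 members. It begins at position -28 in Ugt2b5, -31 in Ugt2b36, -45 in Ugt2b37 and -31 in Ugt2b38. It was sought in these 4 genes because their values were close over the arrays, as described below. A search of 27025 promoter windows then found it in these 4 genes alone (0.0148%, either strand), and nothing is read from that share. The best match reached 16 of 22 bases in Ugt2b35 and 12 of 22 in Ugt2b34. The stretches from 100 bases before to 20 after the start are shown for 3 of these genes and for Ugt2b34, which lacks the run. Capitals mark runs of at least 12 bases shared with the Ugt2b5 stretch, and in Ugt2b5 those shared with Ugt2b36.
Ugt2b5, chr5:87140321-87140440, minus strand: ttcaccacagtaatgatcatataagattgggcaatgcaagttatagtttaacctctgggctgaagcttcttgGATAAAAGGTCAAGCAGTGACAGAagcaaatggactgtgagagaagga
Ugt2b36, chr5:87092536-87092655, minus strand: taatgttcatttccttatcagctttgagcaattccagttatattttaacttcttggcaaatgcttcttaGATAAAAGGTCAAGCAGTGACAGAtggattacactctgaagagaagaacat
Ugt2b38, chr5:87424184-87424303, minus strand: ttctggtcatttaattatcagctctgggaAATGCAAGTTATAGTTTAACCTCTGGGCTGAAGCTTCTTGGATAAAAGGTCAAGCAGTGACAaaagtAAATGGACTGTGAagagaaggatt
Ugt2b34, chr5:86906918-86907037, minus strand: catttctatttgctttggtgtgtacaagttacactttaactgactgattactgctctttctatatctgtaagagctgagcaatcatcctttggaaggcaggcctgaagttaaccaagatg
The windows were searched on both strands for letters of 6 motifs. The C/EBP letters TTGCNNAA were found in Ugt2b5 and Ugt2b36, and in 10.75% of all promoters. None of the 6 windows held the letters of an HNF1 half-site (GTTAAT, 7.2% of all promoters), HNF4 (by its letters CAAAGTCCA, 0.48%), CDX (TTTATG, 12.15%), the TATA box (TATAAA, 14.16%) or the AhR core (GCGTG, 32.46%). On the opposite strand the CDX letters read CATAAA, so they overlap the TATA box letters in all but the first base.

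Ugt2b34, an enzyme of this family that was bright on all arrays, was lower after DSS in both genotypes, and by less than any other member. WT day 0 arrays read 5.70, 5.68 and 5.42, and WT day 7 arrays read 5.59, 5.44, 4.43, 5.15 and 4.95. The day 7 mean was lower by 0.49 ± 0.21 (SE) on the log2 scale, a 1.40-fold difference, and the groups overlapped, as replicates 1 and 2 of day 7 reached the lowest day 0 array. Arrays labelled Card9-/- read 5.99, 5.96 and 5.97 at day 0 and 4.51, 4.55, 5.25 and 4.78 at day 7. Here the groups did not overlap, and the day 7 mean was 2.29-fold lower (1.20 ± 0.22, SE). By day 12 the values were 5.37, 5.00, 5.08, 5.37 and 5.03 in WT and 5.33, 5.55, 5.16, 5.02 and 5.27 in the arrays labelled Card9-/-. All 10 day 12 arrays thus remained below the lowest day 0 array of their genotype. The group means ran from 5.97 ± 0.02 (SD, n = 3) in Card9-/- day 0, through 5.60 ± 0.16 (n = 3) in WT day 0, 5.27 ± 0.20 (n = 5) in Card9-/- day 12, 5.17 ± 0.19 (n = 5) in WT day 12 and 5.11 ± 0.46 (n = 5) in WT day 7, to 4.77 ± 0.34 (n = 4) in Card9-/- day 7. Neighbours from Card9-/- day 12 down to Card9-/- day 7 lay within their SDs of each other.

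Ugt2b35 showed the clearest order by day. WT day 0 arrays read 0.52, 0.46 and 0.02, and Card9-/- day 0 arrays read 0.08, 0.19 and 0.46, so the genotypes overlapped before DSS. At day 7 the WT arrays read -0.48, -1.17, -2.24, -1.34 and -1.33, and those labelled Card9-/- read -1.83, -1.97, -2.49 and -2.93. Every day 7 array was below every day 0 array. The difference from day 0 was -1.65 ± 0.32 (SE) in WT, or 3.13-fold, and -2.55 ± 0.33 in the arrays labelled Card9-/-, or 5.86-fold. At day 12 the values were -0.93, -1.77, -0.90, -0.75 and -1.10 in WT and -0.79, -1.10, -1.79, -1.27 and -1.60 in the arrays labelled Card9-/-, which again overlapped between genotypes and stayed below all day 0 arrays. Day 12 stood above day 7 by 1.00 ± 0.29 in the arrays labelled Card9-/-, without overlap (7.66% of features were higher without overlap), and by 0.22 ± 0.28 in WT, with overlap. A second Ugt2b35 probe at chr5:87440554-87440613, dimmer and well above background on 14 arrays, gave -1.59 ± 0.30 (SE) for WT and -1.93 ± 0.31 for Card9-/- at day 7 against day 0, and 0.43 ± 0.27 for Card9-/- at day 12 against day 7. The order of group means was WT day 0 (0.33 ± 0.27), Card9-/- day 0 (0.24 ± 0.19), WT day 12 (-1.09 ± 0.40), Card9-/- day 12 (-1.31 ± 0.39), WT day 7 (-1.31 ± 0.63) and Card9-/- day 7 (-2.31 ± 0.51, SD). The day 0 groups did not differ from each other beyond their spread, and neither did the 3 groups that follow them.

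Ugt2b5, best known as a liver enzyme, spread over 9.06 log2 units across the 25 arrays, the widest span of the 6 members. WT day 0 arrays read -0.86, -0.30 and -0.47. The Card9-/- day 0 arrays read 2.59, 2.43 and 0.26, all above WT, with replicates 1 and 2 far above replicate 3. At day 7 WT arrays read 2.22, -3.05, -4.47, -2.24 and -4.95, with replicate 1 the only high one, and Card9-/- arrays read -3.27, -5.13, -5.94 and -4.06, all low. At day 12 WT arrays read -3.74, -3.26, -2.28, 0.28 and -0.23, with replicates 4 and 5 above all WT day 0 arrays. Card9-/- arrays read -4.92, -6.47, -4.23, -2.71 and -4.05. Day 7 differed from day 0 by -6.36 ± 1.31 (SE), or 82.1-fold, in the arrays labelled Card9-/-, where the groups did not overlap, and by -1.95 ± 1.25 in WT, where they did. The 2 WT day 7 arrays at -4.47 and -4.95 and 2 of the Card9-/- day 7 arrays were not well above background, so the low values are near the limit of this probe.

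Ugt2b38 followed the same arrays. It read -0.08, 0.25 and 0.34 at WT day 0 and 3.13, 2.98 and 0.95 at Card9-/- day 0. At day 7 it read 2.92, -2.12, -3.14, -1.44 and -2.99 in WT and -2.51, -3.89, -4.55 and -2.97 in the arrays labelled Card9-/-, so that a single WT array was as high as the highest day 0 arrays. At day 12 it read -2.02, -2.11, -1.27, 0.86 and -0.79 in WT and -2.05, -5.13, -2.37, -1.76 and -2.99 in the arrays labelled Card9-/-. The day 7 difference was -5.83 ± 1.11 (SE) in the arrays labelled Card9-/- and -1.52 ± 1.06 in WT. Ugt2b36 and Ugt2b37 were high and low on the same arrays at separate probes, of which that of Ugt2b36 also names Ugt2b37. Ugt2b36 lay between -1.77 and -1.47 at WT day 0, reached 1.33 and 1.09 on Card9-/- day 0 replicates 1 and 2 against -0.88 on replicate 3, and ranged from -6.09 to -3.81 at Card9-/- day 7. At WT day 7 its highest array was again replicate 1, at 0.88, and the other 4 lay between -4.61 and -2.98. At Card9-/- day 7, Ugt2b36 and Ugt2b38 were each well above background on 2 of the 4 arrays, so their low values are near the limit of these probes. Ugt2b37 was the member least often detected, well above background on 11 arrays and on none of the 4 Card9-/- day 7 arrays. There the measured mean was -5.28, against 0.44 at Card9-/- day 0, or 52.7-fold lower as measured. The probe's own signals on those 4 arrays were brighter than the dimmest signal well above background. The size of such differences depends on how background is handled. With another background correction, normexp, the median over the 6 members was -2.94 for these groups, against -5.42 in the main fit. Ugt2b37 was also above 0 on the same 3 arrays as the others, at 1.31, 1.09 and 0.79. At day 12 Ugt2b36 ranged from -3.97 to -1.02 in WT and from -6.62 to -3.24 in the arrays labelled Card9-/-, and Ugt2b37 from -4.97 to -1.05 and from -6.22 to -4.09, with WT replicate 4 the highest each time.

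**Figure D1:**
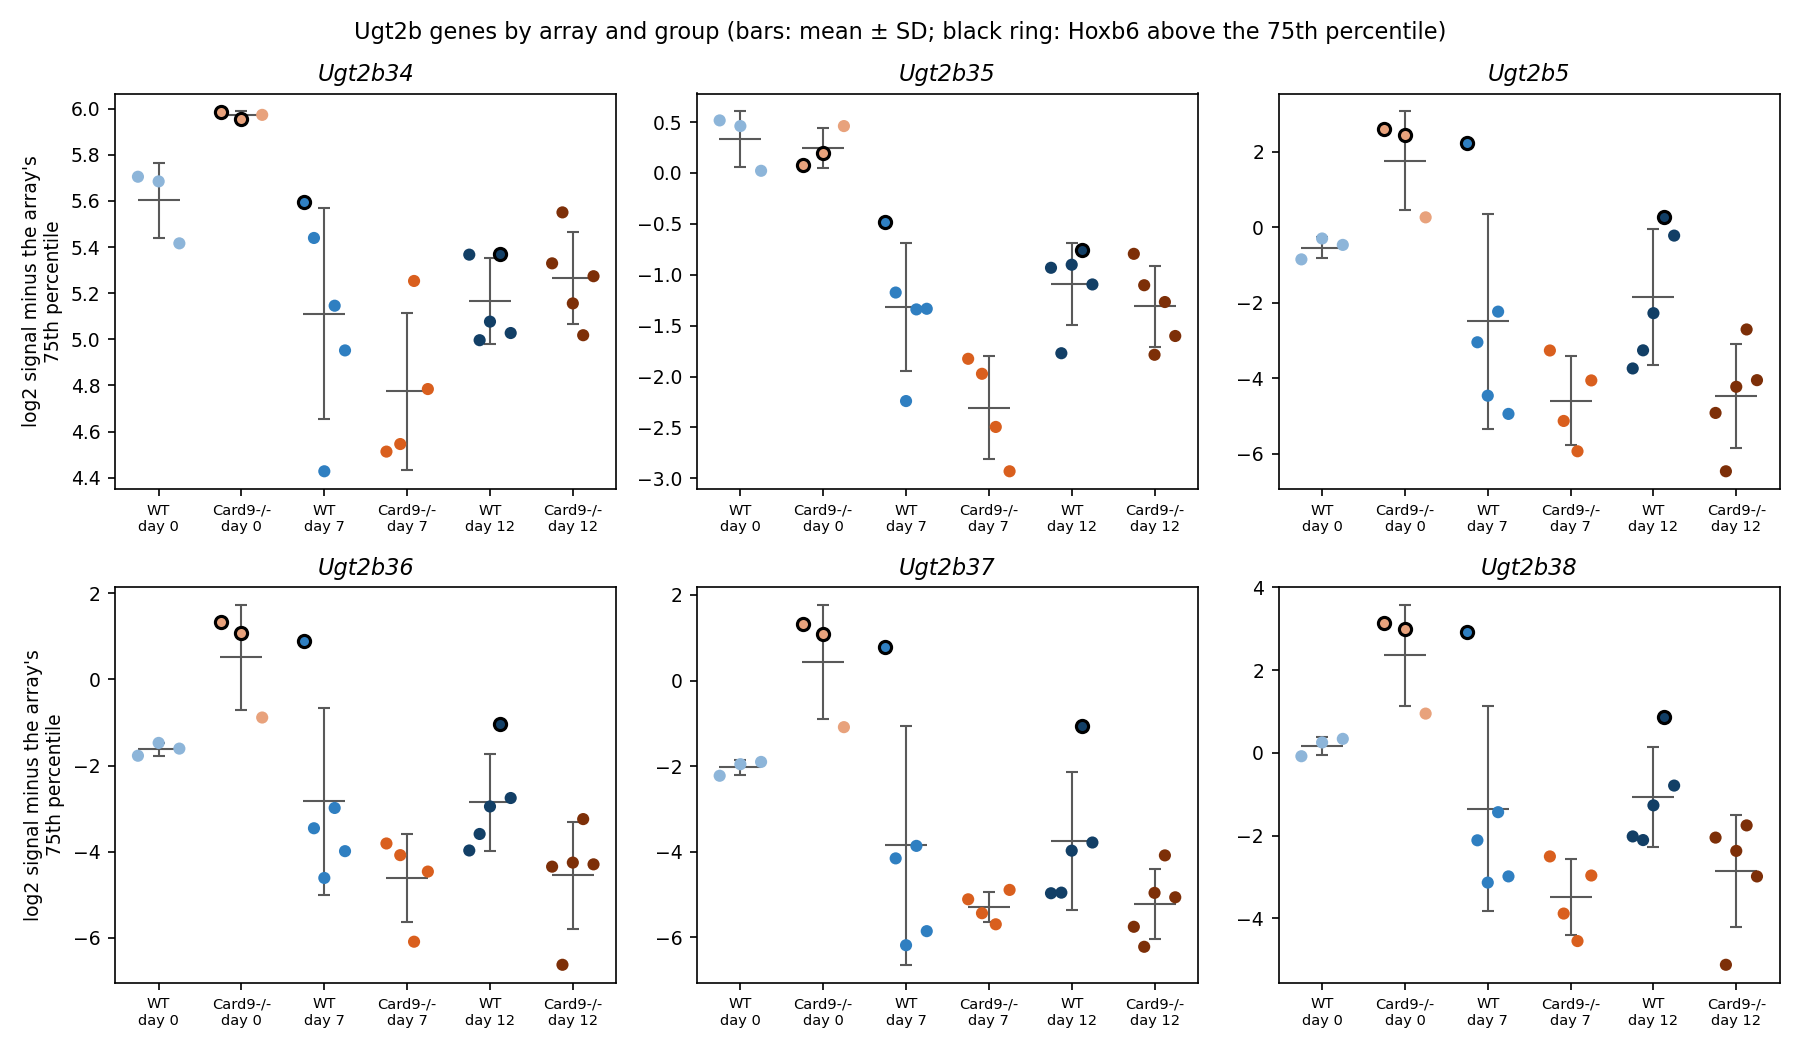
Each panel shows 1 Ugt2b gene, with log2 signal minus the array's 75th percentile on the vertical axis (ranges differ between panels), 1 point per array, and the group mean ± SD as a bar. Points with a black ring are the 4 arrays with Hoxb6 above the 75th percentile. They are the highest of Ugt2b5, Ugt2b36, Ugt2b37 and Ugt2b38 in their groups. For Ugt2b34 and Ugt2b35 the ringed WT arrays are also the highest of their groups, while the ringed Card9-/- day 0 arrays do not both lie above replicate 3.

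The members thus fell into a group of 4 that moved together and a pair that did so less. Pearson's r over the 25 arrays was 0.96 to 0.99 among Ugt2b5, Ugt2b36, Ugt2b37 and Ugt2b38, and 0.93 to 0.97 after the group means were removed. Ugt2b35 correlated with these 4 at 0.73 to 0.76, or 0.40 to 0.46 within groups, and Ugt2b34 at 0.61 to 0.72, or 0.17 to 0.43 within groups. The arrays share their RNA and their scaling across probes, so these values describe the arrays and are given with no test. The Ugt2b36 probe also names Ugt2b37, and the Ugt2b5 and Ugt2b37 probes are alike in sequence. The part of shared probe targets in these r values was not tested. The 22-base run printed above was sought in these 4 genes because their values were close over the arrays. The run and the grouping are therefore not independent, and nothing is read from their overlap.

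Anterior Hox genes of the Hoxb and Hoxd clusters were high on the arrays where the group of 4 was high. The mean of 10 measured anterior Hox genes of 11 listed, relative to the WT day 0 mean, was 1.34 and 1.40 on Card9-/- day 0 replicates 1 and 2 and 1.30 on WT day 7 replicate 1. The listed genes did not move together: Hoxb4, Hoxb5, Hoxb6 and Hoxd4 were higher on these 3 arrays than on any WT day 0 array, while Hoxa5 was lower on all 3 (-1.94 to -1.02 against -0.80 to -0.53 at WT day 0), as were Hoxa3 (0.76) and Hoxa4 (-4.56) on WT day 7 replicate 1. The list mean was 0.80 on WT day 12 replicate 4 and at most 0.51 on all other arrays. By group it ranged from -0.10 to 0.07 at WT day 0, 0.05 to 1.40 at Card9-/- day 0, -0.46 to 1.30 at WT day 7, -0.26 to 0.17 at Card9-/- day 7, -0.65 to 0.80 at WT day 12 and -0.51 to -0.01 at Card9-/- day 12. On the first 3 of these arrays Ugt2b5 read 2.22 to 2.59, against -6.47 to 0.28 on the other 22. Ugt2b36 (0.88 to 1.33 against -6.62 to -0.88), Ugt2b37 (0.79 to 1.31 against -6.22 to -1.05) and Ugt2b38 (2.92 to 3.13 against -5.13 to 0.95) were split the same way, without overlap. Ugt2b34 (5.59 to 5.99 against 4.43 to 5.97) and Ugt2b35 (-0.48 to 0.19 against -2.93 to 0.52) overlapped between the same sets of arrays. WT day 7 replicate 1 was also highest in distal Hox genes, with a list mean 2.65 above WT day 0 and Hoxd13 at 1.00. Small intestine enterocyte markers (8 measured of 9 listed) were also higher on these 3 arrays, by 2.47, 1.60 and 2.30, and by at most 1.09 elsewhere. The part of colon position or of adjoining gut in the Ugt2b levels was not tested, beyond the fits that follow.

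**Figure D2:**
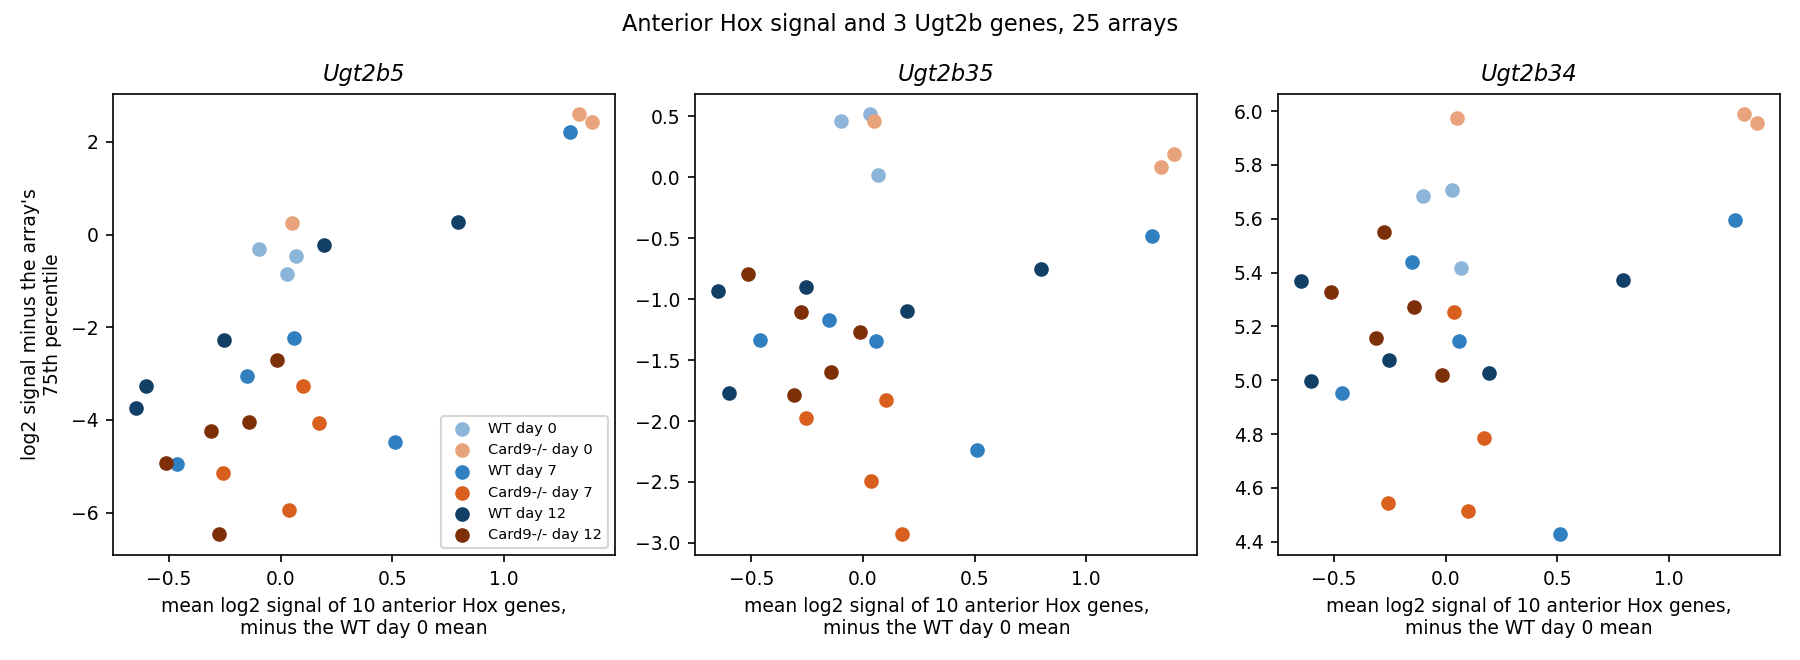
Each point is 1 of 25 arrays, coloured by group, with the mean of 10 anterior Hox genes minus the WT day 0 mean on the horizontal axis and the log2 signal of Ugt2b5, Ugt2b35 or Ugt2b34 on the vertical axis. The 3 arrays at 1.30 to 1.40 on the horizontal axis are the 3 highest for Ugt2b5, and at any Hox level the day 7 and day 12 arrays of Ugt2b35 lie below the day 0 arrays.

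Injury by DSS in the arrays labelled Card9-/- came with lower signal of the whole set. The median of the 6 differences between day 7 and day 0 was -5.42, against -0.08 over all features. All 6 members passed an adjusted p of 0.05 in limma in the lower direction, where 12.7% of all 25560 features tested did, and none overlapped with day 0, where 18.0% of features were lower without overlap. Without the 3 arrays with anterior Hox signal, which leaves 1 array at Card9-/- day 0, the median was -3.96. In that fit the lone array is assumed to vary like the other groups. With the Hox mean as a covariate the median was -3.37 and single members differed by -3.78 ± 0.94 (Ugt2b5), -3.34 ± 0.84 (Ugt2b36), -3.40 ± 0.82 (Ugt2b37), -3.81 ± 0.88 (Ugt2b38), -2.45 ± 0.39 (Ugt2b35) and -1.12 ± 0.25 (Ugt2b34, SE). Within the 2 slides that held both groups all 6 members were lower, with medians of -4.19 and -5.94. In bulk colon RNA, fewer cells of a type and less RNA per cell cannot be told apart. The mean of immune markers (7 of 7 measured) stood 3.71 to 4.19 above WT day 0 in the Card9-/- day 7 arrays and -1.17 to -0.27 in the Card9-/- day 0 arrays. Of these markers 5 were called higher and 2 were not called. Red blood cell markers (4 measured of 5 listed) stood at 2.33 to 5.41 and -1.25 to -0.06 in the same groups, with all 4 called higher, and small intestine enterocyte markers at -0.09 to 0.28 and 0.62 to 2.47, with 1 of 8 called lower. Over the same groups the 9 epithelium markers moved from 0.08 to 0.11 down to -0.29 to -0.09, and the 9 absorptive colonocyte markers overlapped (-0.79 to 0.34 and -0.77 to 0.44). The part of these shifts in the Ugt2b values was not tested.

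In WT the same comparison gave smaller and more scattered differences. All 6 members were lower at day 7, with a median of -1.58 against 0.03 over all features, and Ugt2b35 alone had no overlap (7.20% of features were lower without overlap). A single member passed the adjusted p, where 2.31% of features did in the lower direction. None passed in a fit to those groups alone, where 38 of 25560 features were called. Replicate 1, the array with anterior and distal Hox signal, was the highest of its group for all 6 members. Without it the differences were -3.13 ± 0.99 for Ugt2b5, -2.14 ± 0.73 for Ugt2b36, -2.99 ± 0.76 for Ugt2b37, -2.59 ± 0.77 for Ugt2b38, -1.86 ± 0.32 for Ugt2b35 and -0.61 ± 0.21 for Ugt2b34 (SE, in the fit without the 3 arrays), with a median of -2.36. Within 3 slides the medians were -2.72, -2.85 and -1.37, with all 6 lower each time. The mean of 7 immune markers stood at 1.28 to 3.86 on the WT day 7 arrays and -0.20 to 0.27 on the WT day 0 arrays. Of these markers 2 were called higher and 5 were not called, with a median difference of 0.62. Their part was not tested.

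At day 12, after 5 days of water, most arrays still read below day 0. The comparisons with day 0 reuse the day 0 arrays of the day 7 comparisons, so the pairs of results are not independent. In the arrays labelled Card9-/- the differences from day 0 were -6.24 ± 1.25 (Ugt2b5), -5.06 ± 0.97 (Ugt2b36), -5.65 ± 1.12 (Ugt2b37), -5.21 ± 1.06 (Ugt2b38), -1.56 ± 0.32 (Ugt2b35) and -0.71 ± 0.21 (Ugt2b34, SE), none with overlap (9.64% of features were lower without overlap). Their median was -5.14 and all 6 members passed, where 3.24% of features passed in the lower direction. It was -3.74 without the 3 arrays, which leaves 1 array at Card9-/- day 0, and -2.63 with the Hox covariate. With the covariate no member passed, and the number of all 25560 features called fell from 1771 to 240. Within the 2 slides that held both groups the medians were -3.53 and -6.87. In WT the median was -1.27, with no overlap for Ugt2b34 and Ugt2b35 (6.89% of features were lower without overlap). Ugt2b35 was called (0.587% of features called lower), and not without WT day 0 replicate 1 or 2, WT day 12 replicate 2 or 5, or the 4 pancreatic arrays. WT day 12 replicate 4, with Hoxb6 above the 75th percentile, read above all WT day 0 arrays for Ugt2b5, Ugt2b36, Ugt2b37 and Ugt2b38, and on its slide 2 of 6 members were lower than at day 0. Within the other 2 slides all 6 were lower, with medians of -2.30 and -2.36. The immune marker mean at day 12 stood at 1.48 to 3.07 in WT and 2.77 to 3.52 in the arrays labelled Card9-/-. Against day 0, 2 of 7 markers were called higher in WT, with a median difference of 0.33. In the arrays labelled Card9-/- it was 5 of 7, with a median of 1.83. Their part was not tested. At Card9-/- day 12, Ugt2b37 was well above background on 1 of 5 arrays, Ugt2b5 and Ugt2b36 on 3 and Ugt2b38 on 4. Values near the limit of these probes at day 7 and day 12 restrict what differences between those days can show, and the size of those from day 0. Against day 7, day 12 was higher by a median of 0.31 in the arrays labelled Card9-/-, and by 0.17 in WT, where limma called no member (0 also at an unadjusted p of 0.05, and 0.485% of features in either direction). In the former, 1 member, Ugt2b35, was called (5.68% of features called higher, 7.64% in either direction). That call was lost with normexp, with no filter, with the mean of probes, without the 4 pancreatic arrays, in a fit to those groups alone, and without each of Card9-/- day 7 replicates 2 and 4 or day 12 replicates 1, 2, 4 and 5. Without the pancreatic arrays the Card9-/- median was -0.20, and with normexp -0.03. Within the 4 slides the medians of day 12 against day 7 were 0.54, 0.56, 1.36 and -0.87 in the arrays labelled Card9-/-. In WT they were 0.33, -3.60, 0.65 and 2.13, with -3.60 on the slide of WT day 7 replicate 1. Without the 3 arrays the WT median was 1.08.

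**Figure D3:**
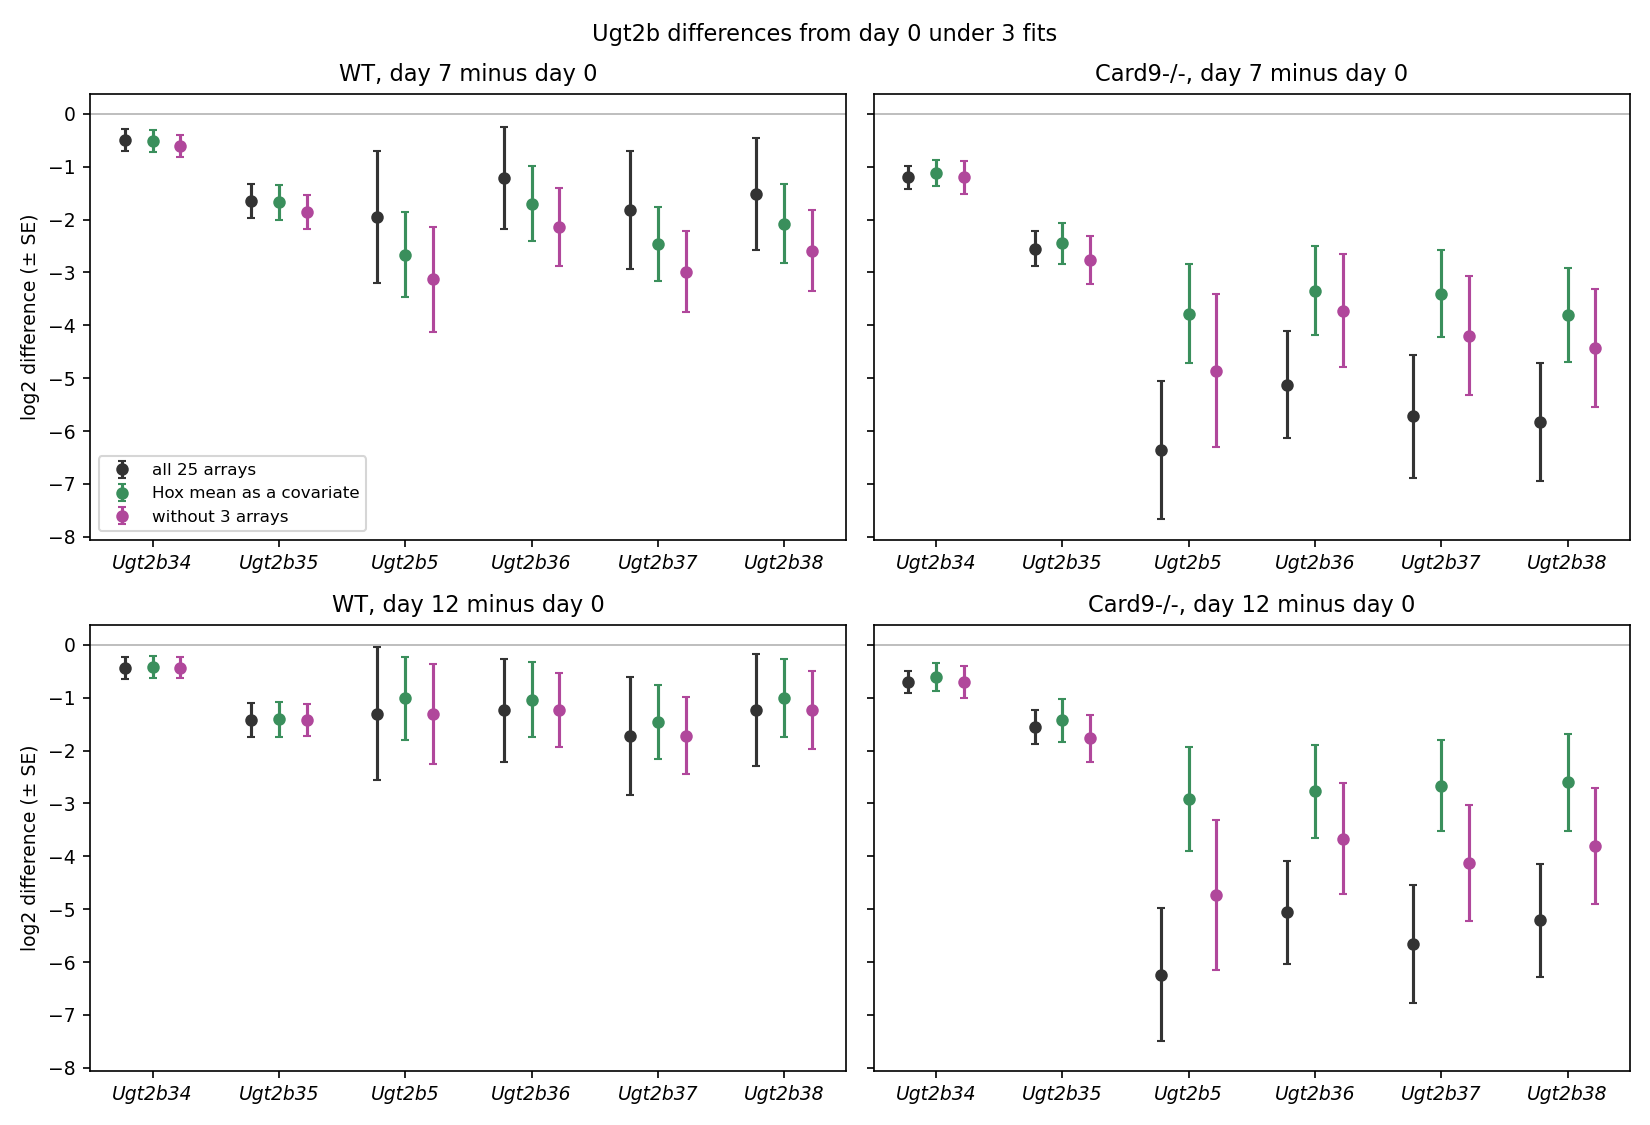
Points give the log2 difference from day 0 with its SE for each Ugt2b gene in 4 comparisons, from the fit to all 25 arrays, with the mean of the anterior Hox genes as a covariate, and without 3 arrays with anterior Hox signal. All points lie below 0; the differences of Ugt2b5, Ugt2b36, Ugt2b37 and Ugt2b38 in the Card9-/- panels shrink towards 0 in the other fits, and those of Ugt2b34 and Ugt2b35 move little.

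Between genotypes the members showed no difference that passed a test over all features. At day 0, 5 of 6 members were higher in every array labelled Card9-/- than in every WT array, as were 10.5% of all features, with a median difference of 2.16, and limma called none (0 at an unadjusted p of 0.05; 0.00391% of features called). That median was 0.12 with the Hox covariate, 0.76 without the 3 arrays and 0.82 with slide as a block, and 3.16 on the only slide with both groups, which held Card9-/- day 0 replicate 1, 1 of those 3 arrays. At day 7 all 6 members were lower in the arrays labelled Card9-/-, with a median difference of -1.60, overlap in each case and none called (2 at an unadjusted p of 0.05; 0.548% of features). Within the 4 slides that median was -0.33, -5.06, -1.08 and -1.50. Without WT day 7 replicate 3, 1 member was called at day 7, and the number of all features called rose from 140 to 2256. At day 12 the median was -1.58, none was called (1 at an unadjusted p of 0.05; 0.0704% of features), and Ugt2b34 differed by 0.10 ± 0.18. Within the slides it was -0.14, -0.33, -0.21 and -4.51, the last on the slide with WT day 12 replicate 4. Subtracting the WT change between days 0 and 7 from that of the arrays labelled Card9-/- gave -4.40 ± 1.81 for Ugt2b5, -4.31 ± 1.54 for Ugt2b38, -3.91 ± 1.40 for Ugt2b36, -3.89 ± 1.61 for Ugt2b37, -0.90 ± 0.46 for Ugt2b35 and -0.71 ± 0.30 for Ugt2b34. With the Hox covariate these became -1.12 ± 1.28, -1.73 ± 1.20, -1.64 ± 1.15, -0.94 ± 1.12, -0.78 ± 0.53 and -0.61 ± 0.34 in the same order. None was called in limma (5 at an unadjusted p of 0.05; 0.00391% of features), nor was any for day 12 against day 0 (4 at an unadjusted p of 0.05; 0.00391%) or day 12 against day 7 (0; 0.00782%).

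The nearest relatives in the cluster were hardly detected. Ugt2b1 was well above background on 2 arrays, and the probes of Ugt2a1, which also names Ugt2a2, and of Ugt2a3 on none, so they did not pass the filter. Hepatocyte markers (12 measured of 13 listed) moved by -0.42 to 1.61 from the WT day 0 mean.

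Genes that act with the Ugt2b enzymes were taken from 5 lists and tested in limma with Benjamini-Hochberg adjustment over all features. Of 52 measured genes, 22 fell and 5 rose between day 0 and day 7 for Card9-/- (19.6% of all features called in either direction), and 1 fell and 4 rose in WT (4.32%). Without the 3 arrays with anterior Hox signal these counts were 6 in the arrays labelled Card9-/- and 9 in WT. The number of all features called moved with them, from 5001 to 1090 (of 25539) in the arrays labelled Card9-/-, where 1 day 0 array was left, and from 1103 to 1493 in WT. At day 12 against day 0, 10 fell and 3 rose in the arrays labelled Card9-/- (6.93% of features), and 0 fell and 2 rose in WT (1.71%).

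Of other glycosyltransferases, 16 were listed, 9 were on the array and 5 were measured. At Card9-/- day 7, 3 fell. Ugt1a10, of the UGT1A locus, fell by 1.33 ± 0.26 (adjusted p = 0.00126), from 2.01, 1.44 and 0.99 at day 0 to between 0.04 and 0.24 at day 7. Ugt1a6b, from the same locus, fell by 1.42 ± 0.32 (adjusted p = 0.00329). UGT1A genes share their last exons, so their probes may not be specific. Ugt8a, which makes galactosylceramide, was well above background on 3 arrays in all and on none at Card9-/- day 7. It passed the filter only through those 3 arrays, of which 2 were among the 3 at Card9-/- day 0. Ugt8a is counted among the genes that fell, and nothing is read from its call (limma adjusted p = 0.0299). Its measured mean was -6.27 at Card9-/- day 7 and -3.59 at day 0, or 6.44-fold lower as measured. The groups overlapped, and with normexp background correction the difference was -0.61 (adjusted p = 0.337). Its 3 arrays above -3 were the 3 with high anterior Hox genes, at -1.99, -2.78 and -2.33, and the call was lost without them (adjusted p = 0.901). In WT no gene of this list passed at day 7. Without the 3 arrays Ugt1a10 (-0.83, adjusted p = 0.158) and Ugt1a6b (-0.85, adjusted p = 0.0921) lost their calls as well, and in WT Ugt1a10 passed (-0.75, adjusted p = 0.0499).

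Of 9 measured genes that supply the sugar donor or reverse the reaction, 3 fell and 1 rose at Card9-/- day 7. Ugdh makes UDP-glucuronic acid from UDP-glucose. It read 6.70, 6.56 and 5.79 at Card9-/- day 0 and 4.11, 3.85, 4.74 and 4.18 at day 7, without overlap, and fell by 2.13 ± 0.37 (adjusted p = 0.000462). It still fell without the 3 arrays, by 1.57 where labelled Card9-/- (adjusted p = 0.0138) and by 1.02 in WT (adjusted p = 0.0118), whereas with all arrays WT gave -0.65 (adjusted p = 0.378). Entpd5, which clears UDP in the endoplasmic reticulum, fell by 1.38 ± 0.28 (adjusted p = 0.00154), and Ugp2, which makes UDP-glucose, by 0.50 ± 0.10 (adjusted p = 0.00118). Gusb, the lysosomal β-glucuronidase that removes glucuronic acid, rose by 0.61 ± 0.16 (adjusted p = 0.0115) and was also higher at day 12 than at day 0 in both genotypes, by 0.56 ± 0.16 (adjusted p = 0.0325) where labelled Card9-/- and 0.62 ± 0.16 (adjusted p = 0.0469) in WT. Without the 3 arrays Entpd5 passed (-1.13, adjusted p = 0.0408), also in WT (-0.79, adjusted p = 0.0286), and Ugp2 (-0.28, adjusted p = 0.282) and Gusb (0.55, adjusted p = 0.212) did not. The other 5 of 9 genes of this list did not pass at Card9-/- day 7, and in WT none of the 9 passed at day 7 with all arrays.

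Among 7 transporters of glucuronides and related organic anions, 3 fell and 1 rose at Card9-/- day 7. The efflux pumps Abcg2 and Abcc3 fell by 0.93 ± 0.19 (adjusted p = 0.00144) and 0.79 ± 0.20 (adjusted p = 0.00653), and the uptake carrier Slco2b1 by 0.73 ± 0.19 (adjusted p = 0.011). The pump Abcc4 rose by 0.64 ± 0.16 (adjusted p = 0.00642). None of these 4 passed without the 3 arrays (adjusted p from 0.195 to 0.575). In WT no transporter passed at day 7, although Abcg2 did without WT day 7 replicate 1 (-0.71, adjusted p = 0.0203, in the fit without the 3 arrays). From day 7 to day 12 in WT, Abcg2 rose by 0.72 ± 0.16 (adjusted p = 0.0395). That call was lost in a fit to those groups alone, where 0 of 25561 features were called.

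Of 20 transcription factors that act on UGT genes in liver or gut, 8 fell and 1 rose at Card9-/- day 7. Ppara, the fatty acid receptor, read 3.55, 2.93 and 2.43 at day 0 and 0.73, 0.73, 0.94 and 0.36 at day 7, and fell by 2.28 ± 0.40 (adjusted p = 0.000503). Vdr, the vitamin D receptor, fell by 1.12 ± 0.23 (adjusted p = 0.00154). Nfe2l2, which encodes the oxidative stress factor Nrf2, fell by 0.81 ± 0.15 (adjusted p = 0.000683). Cebpb, a factor induced in inflammation, rose by 1.48 ± 0.28 (adjusted p = 0.000791), and in WT by 1.22 ± 0.26 at day 7 (adjusted p = 0.011) and 1.11 ± 0.26 at day 12 (adjusted p = 0.0332). Without the 3 arrays Ppara passed at Card9-/- day 7 (-1.74, adjusted p = 0.0089) and in WT (-0.87, adjusted p = 0.0335), while Vdr (-1.10, adjusted p = 0.0767), Nfe2l2 (-0.69, adjusted p = 0.064) and Cebpb (1.37, adjusted p = 0.0643) did not in the former, at differences close to those with all arrays. Nr1h4, the bile acid receptor FXR, rose by 0.67 ± 0.18 in WT (adjusted p = 0.0331). From day 7 to day 12 in the arrays labelled Card9-/-, 4 of the 20 rose, namely Hnf4a, Foxa1, Nfe2l2 and Cdx1, by 0.40 to 0.55.

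Enzymes that make or inactivate steroid substrates changed in both directions. At day 7, 5 of 11 measured fell and 2 rose for Card9-/-, and 1 fell and 2 rose in WT. Hsd3b3, a 3β-hydroxysteroid dehydrogenase, fell by 1.78 ± 0.29 at Card9-/- day 7 (adjusted p = 0.000295). Sult2b1, a sterol sulfotransferase, fell by 1.06 ± 0.21 (adjusted p = 0.00121) and by 0.96 ± 0.20 in WT (adjusted p = 0.0088). Cyp7b1, which hydroxylates oxysterols, rose by 3.71 ± 0.63 at Card9-/- day 7 (adjusted p = 0.000363) and by 2.12 ± 0.60 in WT (adjusted p = 0.0482). Hsd11b1, which regenerates active glucocorticoid, rose by 1.94 ± 0.37 (adjusted p = 0.000925) and by 1.30 ± 0.35 in WT (adjusted p = 0.0391). Without the 3 arrays Sult2b1 passed in both genotypes, Hsd3b3 did as well (-1.24, adjusted p = 0.0257, and -0.72 in WT, adjusted p = 0.0424), Cyp7b1 passed for Card9-/- (adjusted p = 0.0269) and not for WT (2.18, adjusted p = 0.0667), and Hsd11b1 passed in neither (1.83, adjusted p = 0.0847, and 1.26 in WT, adjusted p = 0.0728). No gene of the 5 lists was called between genotypes by limma, at day 0 (14 at an unadjusted p of 0.05), day 7 (11) or day 12 (2), and none differed in the change over time, with 20, 9 and 1 at an unadjusted p of 0.05 for day 7 against day 0, day 12 against day 0 and day 12 against day 7.

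**Figure D4:**
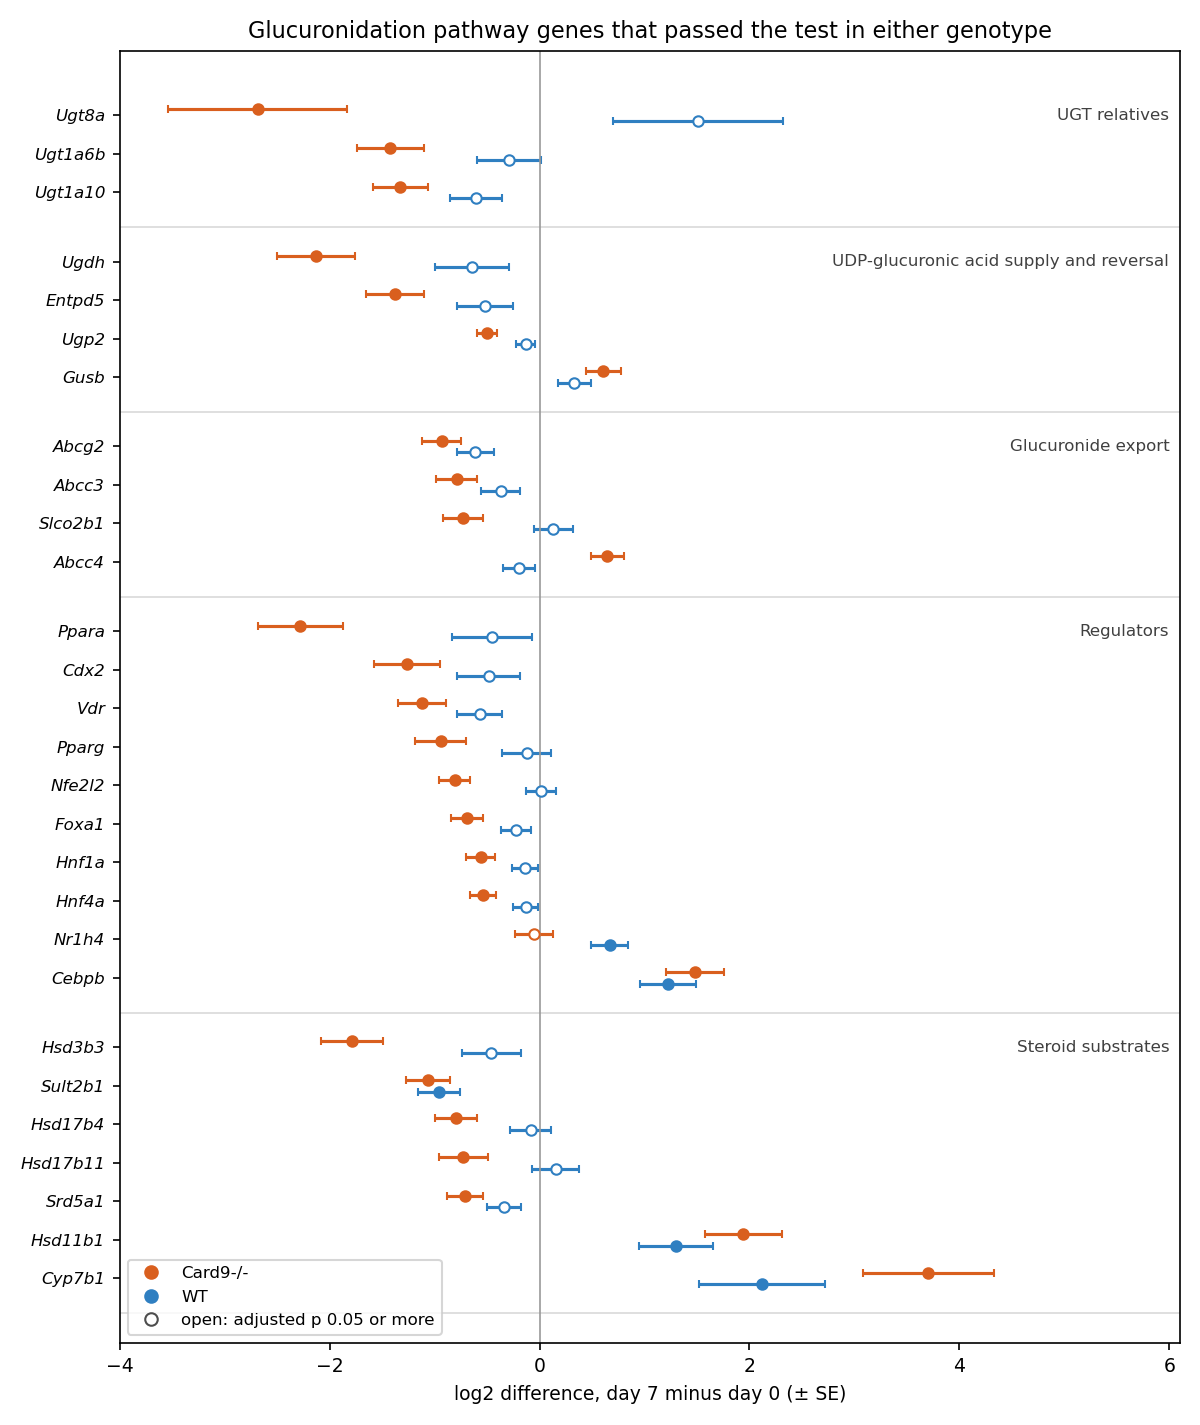
Log2 difference between day 7 and day 0 with its SE for each pathway gene that passed an adjusted p of 0.05 in either genotype, grouped by list; orange points are arrays labelled Card9-/-, blue points WT, and open points did not pass. Most orange points lie left of 0, the lowest being Ugt8a at -2.69 and Ppara at -2.28, and Cyp7b1 (3.71), Hsd11b1 (1.94) and Cebpb (1.48) are the 3 highest of them.

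The genes most like Ugt2b34, the member with the brightest probe, were sought over the 25 arrays by Pearson's r, as a description with no test. The 10 highest were Mpc1 (0.96), Mccc1 (0.95), Acadm, Entpd5, Ocln, Sirt3, Ank3, Dmac2, Lonp2 and Cyp2s1 (0.93). Mpc1 encodes a subunit of the mitochondrial pyruvate carrier, Acadm an acyl-CoA dehydrogenase of fatty acid oxidation, and Ocln the tight junction protein occludin. With group means removed, the 10 highest were Mpc1 (0.92), Acaa1a (0.91), Ocln (0.91), Cyb5a, Acadm, Kdm5b, Themis3, Abcc3, Tinag and Acss1 (0.89). Mpc1, Acadm and Ocln were in both lists, and the efflux pump Abcc3 was in the second. The arrays share RNA quality, scaling and tissue makeup, so likeness over them is not evidence of a shared role.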

How the data were processed

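Each array file holds spot intensity on a linear scale, background-subtracted by Agilent Feature Extraction 10.7.3.1, per the file headers, and the authors deposited it without normalization between arrays. The deposited series value table, on a log2 scale by its values, served as an alternative; the sources used here do not say how it was normalized. From the processed intensity, log2 minus the array's 75th percentile over non-control spots was taken. Outlier spots were left out, and a feature was kept where well above background on at least 3 arrays, with 1 probe a gene (the highest mean). Probe names came from RefSeq accessions (27656 probes), symbols (3722) or the files (24303). One model of 6 group means over 25 arrays was fitted with limma 3.58.1 in R 4.3.3, with Benjamini-Hochberg adjustment per contrast and a threshold of 0.05, after the code was tested on simulated data. Replicates are separate mice by their labels, with no litter or cage given. Other tools were data.table (1.17.8), pandas 2.3.3, Biopython 1.88 and matplotlib 3.10.9. Array number limits the precision.

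Genes named are the 6 members, Ugt2b1, Ugt2a1, Ugt2a2 and Ugt2a3, of each list up to 4 called genes with the smallest p in a contrast, and the 10 genes most like the brightest member. The members and lists were chosen with earlier results of these data known, as were the arrays set aside. Alternatives were normexp (offset 50), quantile normalization, the series table, no filter or a 13-array filter, the mean of probes, slide or replicate blocks, the anterior Hox covariate, left-out arrays and fits to the contrast's groups. Leaving out the 4 arrays with Hoxb6 above the 75th percentile was added after seeing the data. One result on likeness over arrays is not reported here.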

Additional observations from a re-analysis of the deposited data

Results flagged for a closer look

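Among 24 combinations of a member and a group of 4 or 5 arrays, 1 array stood apart from the rest of its group: Ugt2b38 on WT day 7 replicate 1, at 2.92 against -1.44 on the nearest of the other 4. Chance flags about 1 in 20 such groups. The same array was the highest of its group for the other 5 members and carried Hoxb6 at 3.25; the cause was not tested. Outside the genes described, Ugt2b1 was well above background on Card9-/- day 7 replicate 3, at -3.33, and on WT day 12 replicate 1, at -4.29, and on no day 0 array. The first of these arrays also carried pancreatic acinar genes, 14.7 above the WT day 0 mean, whose part in the signal was not tested.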

How the results depend on the processing

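No value changed direction past a call. For the 6 members, the sign of the difference from day 0 was the same under every alternative in both genotypes at day 7 and day 12, and so were the signs between genotypes at day 7 and day 12. Signs differed in 17 of 130 values between day 12 and day 7 for Card9-/-, in 20 of 136 in WT, and in 4 of 112 between genotypes at day 0. With normexp the median difference was -2.94 for Card9-/- day 7 and -3.14 for Card9-/- day 12 against day 0, -0.72 for both WT day 7 and WT day 12, and, between genotypes, -0.68 at day 7 and -0.60 at day 12. The Hox covariate gave -3.37, -2.63 and, between genotypes at day 0, 0.12. Leaving out 3 arrays with anterior Hox signal, or 4 with Hoxb6 above the 75th percentile, gave the same medians, -3.96, -3.74 and 0.76. Leaving out 1 array at a time gave -6.15 to -5.00 (Card9-/- day 7), -2.36 to -1.16 (WT day 7), -5.84 to -4.59 (Card9-/- day 12), -1.71 to -0.98 (WT day 12) and 1.76 to 2.86 (genotypes at day 0). The series table and the 13-array filter lacked Ugt2b37 and gave no median over 6 members.

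For Card9-/- day 7 against day 0 the number of pathway genes called (27) was 6 without the 3 or the 4 arrays and 17 in a fit to those groups alone, and 19 to 30 when 1 array was left out. The WT count (5) was 3 with quantile normalization, the replicate block or without the pancreatic arrays, 2 with no filter, 9 and 8 without the 3 and the 4 arrays, and 0 in a fit to those groups alone. It was 0 to 8 without 1 array, being 0 without WT day 0 replicate 1, 2 without WT day 0 replicates 2 or 3 or WT day 7 replicate 4, 3 without WT day 7 replicate 3 and 8 without WT day 7 replicate 1. The Card9-/- day 12 count (13) was 6 with slide as a block, and 0 with the covariate and without the 3 or the 4 arrays. It was 1 to 17 without 1 array: 1 and 2 without day 0 replicates 1 and 2, and 5, 6 and 7 without day 12 replicates 3, 4 and 5. The WT day 12 count (2) was 0 with normexp, quantile normalization, no filter or without the pancreatic arrays, and 1 with the series table, the mean of probes, the slide block, the replicate block or without the 4 arrays. It was 0 to 2 without 1 array: 0 without any of the day 0 arrays or day 12 replicates 2, 3 or 5, and 1 without day 12 replicate 4. Replicate numbers were not taken to pair the samples: 15 of 54 same-numbered pairs correlated above 0.1 (range -0.44 to 0.68). Pairs with different numbers were not compared, so these values do not settle whether the numbers pair samples. Probes not well above background, that of Ugt2b37 most often, limit the size of the lower values. Causes of these shifts were not tested.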

Other observations

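Genes whose values resembled those of the other members were looked at in the same way as for Ugt2b34, and those named here were chosen after their values had been seen. Slc13a1, a sulfate carrier, was among the 5 genes with the highest Pearson's r over the 25 arrays for Ugt2b5 (0.94) and Ugt2b36 (0.93). Ppara was among the 5 highest for Ugt2b37 (0.93). For Ugt2b35 the highest were Nectin3 and Trim2 (0.94 each). These values are across arrays that share RNA and scaling and are given as description.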
